A study of Mus musculus with 2 samples.

Results

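Tcf1 binding was examined at 10 genes for transcription factors that act downstream of T cell activation: the AP-1 genes Fos, Fosl2, Jun, Junb, Jund and Batf, the interferon regulatory factor Irf4, and the NFAT genes Nfatc1, Nfatc2 and Nfatc3. A peak was assigned to a gene when its summit lay in the gene body or within 50 kb of either end in the mm9 annotation. The 10 windows held 64 of the 22286 deposited peaks, and none of the windows overlapped another. Of these peaks, 58 met the study's high-confidence limits (fold enrichment 4 or higher, p below 1e-05, q below 0.05), which 19042 of all deposited peaks (85.4%) passed. Unless stated otherwise, a peak below is a high-confidence peak.

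The peaks came from ChIP-seq with a rabbit antiserum against full-length Tcf1 on naive CD8 T cells sorted from mouse spleen as GFP+ TCRbeta+ CD62Lhi CD44lo-med CD8+. After duplicate removal, the single wild type (WT) library held 36938606 fragments. The single Tcf1-deficient library, which served as the control, held 27625250. The sources differ on the control cells: the sample title calls them Tcf1-deficient, the genotype label reads Tcf1-/-Lef1-/-, and the study's methods name Cd4-Cre+ Tcf7 fl/fl mice. The design text gives hCD2-Cre and Rosa26-lsl-GFP for the mice of both groups, with Tcf1/Lef1 either wild-type or double floxed. Cd4-Cre deletes from the double-positive thymocyte stage onward, so the control cells developed in part without Tcf1 if that strain was used. The methods give an age range in weeks, and the use of both sexes, for the study's mice as a whole and not for these libraries, and do not say whether animals were pooled for them. The peak list holds no expression values, so the labelled cell type was not checked against markers here. Each value below comes from a single pair of libraries with no replicate check. The intervals of pileups cover counting error only. Those of shares and medians treat the peaks as independent, although several peaks share a gene, so they may be too narrow.

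AP-1 is a dimer of basic leucine zipper proteins, usually a Fos family member paired with a Jun family member, that binds DNA after antigen receptor and stress signals. Batf pairs with Jun proteins and lacks a transactivation domain of its own, and Batf-Jun dimers bind composite elements together with Irf4 in activated T cells. NFAT proteins wait in the cytoplasm of resting T cells in phosphorylated form and enter the nucleus once calcium activates the phosphatase calcineurin. Tcf1, encoded by Tcf7, is an HMG-box factor that maintains the naive state of CD8 T cells, and the cells studied here were resting.

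Fos, the founding AP-1 subunit and an immediate early gene (ENSMUSG00000021250.7, chr12:86814840-86818223 on the plus strand), had the tallest Tcf1 peak of the 10 genes. This peak lay 26.6 kb upstream of the Fos start site (chr12:86787694-86788703) with a pileup of 371 WT fragments over the summit (95% Poisson interval 334 to 411). Its fold enrichment, the ratio of the WT pileup to the local control level with 1 added to each, was 58.0. It ranked 61 of all 19042 peaks by fold enrichment. The control level there was at its genome-wide floor of 5.42 fragments, the lowest level the peak caller allowed. In a population of cells, more cells with Tcf1 bound and more binding per cell cannot be told apart from a pileup.

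The sequence around the tallest Fos summit is shown because it carried the highest enrichment of the set, and none of the 8 Fos peaks held the exact Tcf/Lef core ATCAAAG within 100 bp of its summit. The capitals mark a Runx core, TGTGGTT read on the other strand, 72 bp to the left of the summit. The run covers chr12:86788157-86788357 of mm9 on the plus strand and is intergenic.
Fos upstream summit: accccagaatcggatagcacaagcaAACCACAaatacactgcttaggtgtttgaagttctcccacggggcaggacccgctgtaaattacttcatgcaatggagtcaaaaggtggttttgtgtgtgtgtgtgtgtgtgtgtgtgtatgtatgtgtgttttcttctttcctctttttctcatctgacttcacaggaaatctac

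The tallest peak was part of a group of upstream peaks. The next Fos peaks had pileups of 110 (90.4 to 133) at 29.1 kb upstream and 89 (71.5 to 110) at 43.3 kb upstream, with fold enrichments of 17.3 and 14.0. A further peak 18.5 kb upstream had a pileup of 69 and a fold enrichment of 10.9. The interval of the tallest peak did not overlap that of any other Fos peak. Binding at the promoter, defined as 1 kb on each side of an annotated start site, was lower: 2 peaks with pileups of 51 and 38 lay 28 bp and 58 bp from annotated starts, with fold enrichments of 6.77 and 6.08. The remaining 2 peaks, 4.94 kb upstream and 8.83 kb beyond the gene end, had fold enrichments of 5.07 and 5.63. All 8 peaks had a Fos start as their nearest annotated start site. Of 22350 protein-coding genes, 4.64% had 8 or more peaks in the same kind of window and 0.506% had a peak of this fold enrichment or higher.

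**Figure D1:**
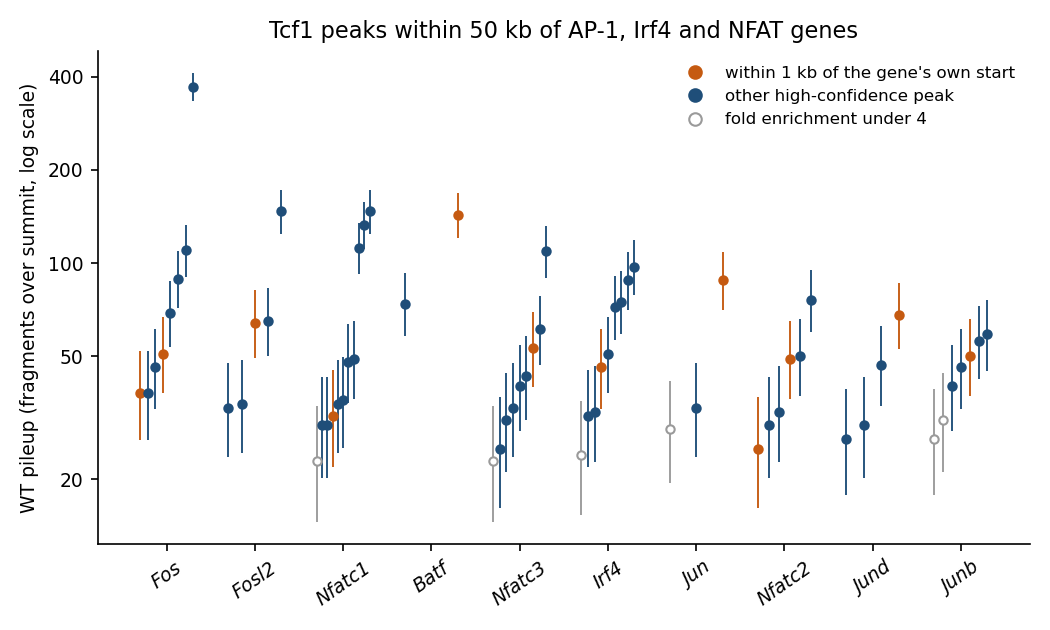
Pileup of WT fragments over each of the 64 deposited peak summits in the windows, on a log axis, by gene in the order of the tallest peak. Bars are 95% Poisson intervals; orange points lie within 1 kb of the gene's own start site, blue points elsewhere, and the 6 open grey points have a fold enrichment under 4. The Fos peak at 371 stands above every other point.

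Fosl2, which encodes the Fos-related protein Fra-2 (ENSMUSG00000029135.9, chr5:32438845-32460204, plus strand), had 5 peaks. The strongest (chr5:32435144-32436215) lay 3.40 kb upstream of the Fosl2 start, with a pileup of 147 (124 to 173) and a fold enrichment of 23.1. It sat 94 bp from the start of Gm10463, a gene on the opposite strand, and held a Tcf/Lef core 27 bp to the left of the summit within an annotated UTR of that gene. The peak at the Fosl2 promoter had its summit 0.767 kb upstream, a pileup of 64 (49.3 to 81.7), a fold enrichment of 10.1 and a width of 1558 bp. A peak 32.1 kb upstream had a similar pileup of 65 and a fold enrichment of 5.98, and the control level there was 10.03 fragments, the highest among the 58 peaks. The other peaks had fold enrichments of 5.61 at 46.8 kb upstream and 5.45 in intron 2. Both peaks more than 30 kb upstream had a start of Bre as the nearest.

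Tcf/Lef cores and AP-1 elements within 100 bp of a summit are shown, apart from the cores at Nfatc1 and in the UTR of Gm10463. These are positions at which the immunoprecipitated DNA can be compared with the factors' own binding elements. The other elements searched are not in this list, and some lay nearer to a summit. The Fosl2 peak listed here also held a Runx core 12 bp to the left of its summit. Each run reads 5′ to 3′ on the strand that carries the element as searched, with 10 bases on each side and the element in capitals (ATCAAAG for Tcf/Lef, TGAGTCA for AP-1).
Junb exon, chr8:87501517-87501543, minus strand: ccaggagcgcATCAAAGtggagcgaaa
Irf4 intron 7, chr13:30852263-30852289, minus strand: atgggtagacATCAAAGatttccactg
Nfatc2 intron 1, chr2:168400706-168400732, minus strand: gagctagaaaATCAAAGcgccaaagga
Batf upstream, chr12:87002102-87002128, minus strand: ttcatcaaaaTGAGTCActgaaggtgt
Fosl2 upstream, chr5:32392081-32392107, minus strand: gaactgaaagTGAGTCAgagggagagc
Irf4 promoter, chr13:30840473-30840499, plus strand: tgtgcttgtcTGAGTCAtctcaattcg
Irf4 downstream, chr13:30884353-30884379, minus strand: ttccttccacTGAGTCAggccagccgc

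The exact Tcf/Lef core was found within 100 bp of the summit in 5 of the 58 peaks, 1 each at Junb, Fosl2, Irf4, Nfatc1 and Nfatc2. All 5 cores lay within 27 bp of the summit, at −12, −27, 0, +12 and −4 bp in that order of genes. These were the strongest peaks of Junb and Fosl2 and not of the other 3 genes: the fold enrichments were 9.35 at Junb, 23.1 at Fosl2, 4.42 at Irf4, 5.61 at Nfatc1 and 4.85 at Nfatc2. The AP-1 element was found in 4 peaks, at Batf, Fosl2 and Irf4 (2 peaks), and each lay more than 50 bp from the summit, at +97, +72, +53 and +62 bp.

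The share of peaks with the Tcf/Lef core was 8.62% (Wilson 95% interval 3.74 to 18.6) against 10.2% of all 19042 peaks and 3.31% of windows 2 kb to each side of them. The interval covers the share over all peaks, and its lower bound is just above the share in those side windows. In the windows 2 kb to each side of the 58 peaks themselves the core was in 3.45% (1.35 to 8.53), an interval that overlaps the one at the summits. With any 1 base of the core left free, 63.8% (50.9 to 74.9) of the peaks held a match, against 56.5% of all peaks and 51.8% of the windows to each side of all peaks. In the windows to each side of the 58 peaks the share was 42.2% (33.6 to 51.3), an interval that just overlaps the one at the summits. The AP-1 element was in 6.90% (2.71 to 16.4) of the peaks and 4.67% of all peaks. The Runx core TGTGGTT was in 8.62% (3.74 to 18.6) and 15.5%, the ETS core CGGAAGT in 8.62% (3.74 to 18.6) and 6.93%, and the NFAT core TGGAAAA in 1.72% (0.305 to 9.14) and 3.10%. The IRF element GAAANNGAA was in 6.90% (2.71 to 16.4) and 7.46%, and the CRE TGACGTCA in 1.72% and 1.90%. All elements were searched on both strands. Of the 5 peaks with an ETS core, 4 were among the 19 promoter peaks, and these were at Jun, Junb, Nfatc2 and Nfatc3. This share of 21.1% (8.51 to 43.3) in promoter peaks and of 2.56% in the other 39 stands beside 13.3% and 2.75% over all promoter and all other peaks. In the windows 2 kb to each side of the 58 peaks the NFAT core was in 10.3% (6.02 to 17.2) and the IRF element in 12.1% (7.33 to 19.2). Both intervals overlap those at the summits and lie above the shares in the side windows of all peaks, 5.67% and 6.65%. The AP-1 element, Runx core and ETS core were in 1.72% (0.474 to 6.07), 4.31% (1.85 to 9.69) and 0.862% (0.152 to 4.72) of the side windows of the 58 peaks. These shares were lower than at the summits, with overlapping intervals. In the side windows of all peaks they were 3.45%, 5.24% and 0.549%. None of the intervals at the summits lay wholly above or below the share over all peaks.

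**Figure D2:**
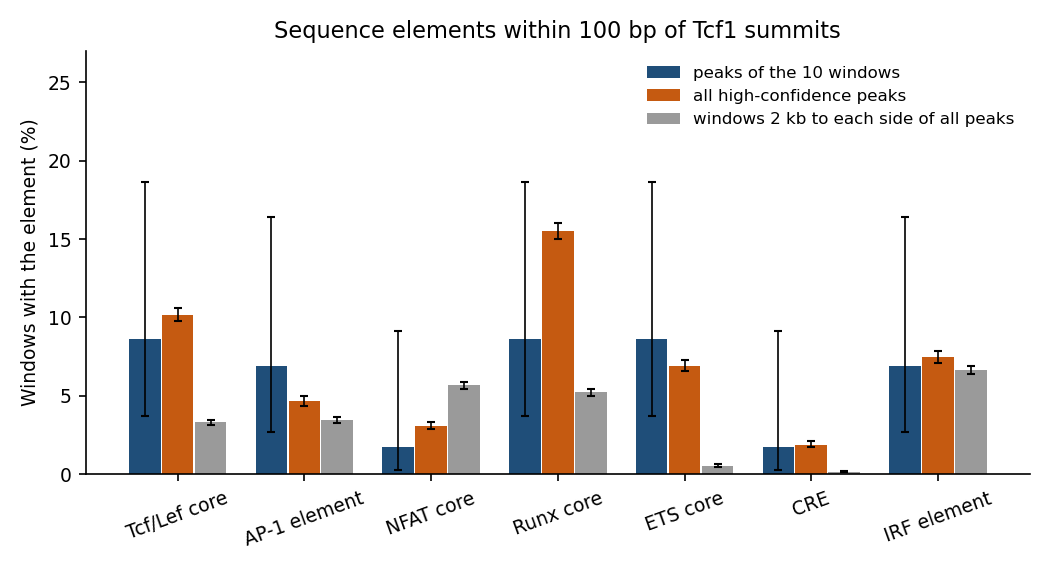
Share of 201-bp windows, in percent, that hold each of 7 sequence elements: the 58 peaks (blue), all 19042 high-confidence peaks (orange) and windows 2 kb to each side of all these peaks (grey). Bars are drawn from 0 with Wilson 95% intervals; the blue intervals are wide and each includes the orange bar.

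Junb encodes a Jun protein that can restrain or replace c-Jun (ENSMUSG00000052837.4, chr8:87500811-87502617, minus strand). The gene is 1.81 kb long and high-confidence peaks covered 88.0% of it. The strongest of its 5 peaks (chr8:87499536-87501711) was 2176 bp wide, which put it among the widest 0.121% of all peaks, with a pileup of 59 (44.9 to 76.1) and a fold enrichment of 9.35. Its summit lay 1.08 kb inside the gene, and the Tcf/Lef core shown above falls in the coding part of the single Junb exon. The promoter peak was 27 bp from the start, with a pileup of 50 and a fold enrichment of 7.95. A further peak with a fold enrichment of 7.32 lay 1.01 kb upstream, just outside the promoter limit. The other 2 peaks had fold enrichments of 8.12 and 6.39 at 11.7 kb and 7.58 kb upstream, and both were nearest to a start of Hook2.

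Jund, the Jun gene least tied to immediate early induction (ENSMUSG00000071076.4, chr8:73221638-73224515, plus strand), showed the same kind of coverage. Its main peak (chr8:73222203-73224941) was 2739 bp wide, the widest of the 58 and among the widest 0.0315% of all peaks, and covered 80.4% of the gene. The pileup was 68 (52.8 to 86.2) and the fold enrichment 10.8, and the summit lay 47 bp from an annotated start. The other 3 Jund peaks had fold enrichments of 5.75 (24.0 kb upstream, at the promoter of Lsm4), 4.42 (2.23 kb upstream) and 4.36 (44.3 kb upstream, in Pgpep1).

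Jun, which encodes c-Jun (ENSMUSG00000052684.3, chr4:94715725-94718913, minus strand), had 2 peaks. The promoter peak (chr4:94718760-94720113) had its summit 0.55 kb upstream, with a pileup of 88 (70.6 to 108), a fold enrichment of 13.9 and a width of 1354 bp. The second, inside the single exon 1.45 kb from the start, had a pileup of 34 and a fold enrichment of 4.99. Both had a start of BC042782 as the nearest, 179 bp and 813 bp away. A further deposited peak between them, with a pileup of 29, had a fold enrichment of 3.32 over a control level of 8.02 and did not pass.

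Wide peaks were frequent in this set. Of the 58 peaks, 9 (15.5%, 8.38 to 26.9) were at least 1000 bp wide against 7.25% of all peaks, and 8 of the 9 were in the windows of AP-1 genes. The median width was 508 bp (433 to 615) against 484 bp over all peaks, a value within that interval. The 19 peaks at promoters of any gene had a median width of 678 bp and the other 39 a median of 474 bp. The median fold enrichment was 7.32 (5.98 to 8.12) against 6.86 over all peaks.

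Batf (ENSMUSG00000034266.5, chr12:87027619-87050037, plus strand) had 2 peaks, and its promoter was the most enriched among those of the 10 genes. The promoter peak (chr12:87027214-87027999) had its summit 4 bp from the start, with a pileup of 143 (121 to 168) and a fold enrichment of 22.4. The second peak, 25.6 kb upstream, had a pileup of 74 (58.1 to 92.9) and a fold enrichment of 11.7. Over all protein-coding genes 49.5% had at least 2 peaks in such a window and 9.79% had a peak as enriched as the Batf promoter. The bases upstream of the Batf start are shown for this reason, up to the last base before exon 1 (chr12:87027523-87027618 of mm9, plus strand). A Runx core centred 7 bp to the left of the summit runs on from the last bases of this stretch into exon 1, and no other element searched lay within 100 bp of the summit.
Batf promoter: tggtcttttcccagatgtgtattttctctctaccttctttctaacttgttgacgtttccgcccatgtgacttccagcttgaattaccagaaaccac

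Fos and Batf lie on the same chromosome, with 209 kb between the end of Fos and the start of Batf. The stretch from 50 kb before Fos to 50 kb after Batf (335 kb) held 11 peaks, 10 of them in the windows of these genes. Jdp2, which encodes an AP-1 repressor, lies between them, and its window shares both Batf peaks.

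Irf4, which is induced in proportion to antigen receptor signalling (ENSMUSG00000021356.3, chr13:30841095-30858796, plus strand), had 8 peaks spread over both flanks and the gene body. The strongest was downstream, 19.4 kb beyond the gene end (chr13:30877670-30878449), with a pileup of 97 (78.7 to 118) and a fold enrichment of 15.3. The next was 16.0 kb upstream (chr13:30824926-30825317), with a pileup of 88 (70.6 to 108) and a fold enrichment of 13.9, nearest to a start of Gm11370. The next again was downstream, 25.5 kb beyond the gene end (chr13:30884053-30884571), with a pileup of 75 (59.0 to 94.0) and a fold enrichment of 11.8, and held an AP-1 element. The intervals of these 3 pileups overlapped. The promoter peak, with its summit 0.662 kb upstream, had a pileup of 46 (33.7 to 61.4) and a fold enrichment of 7.32, and also held an AP-1 element. The other 4 peaks had fold enrichments of 4.42 to 11.4, 2 of them in intron 7. The peak with the Tcf/Lef core at its summit was the weakest of the 8, and it held an IRF element 73 bp to the left of the core. No Irf4 peak reached a width of 1000 bp.

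**Figure D3:**
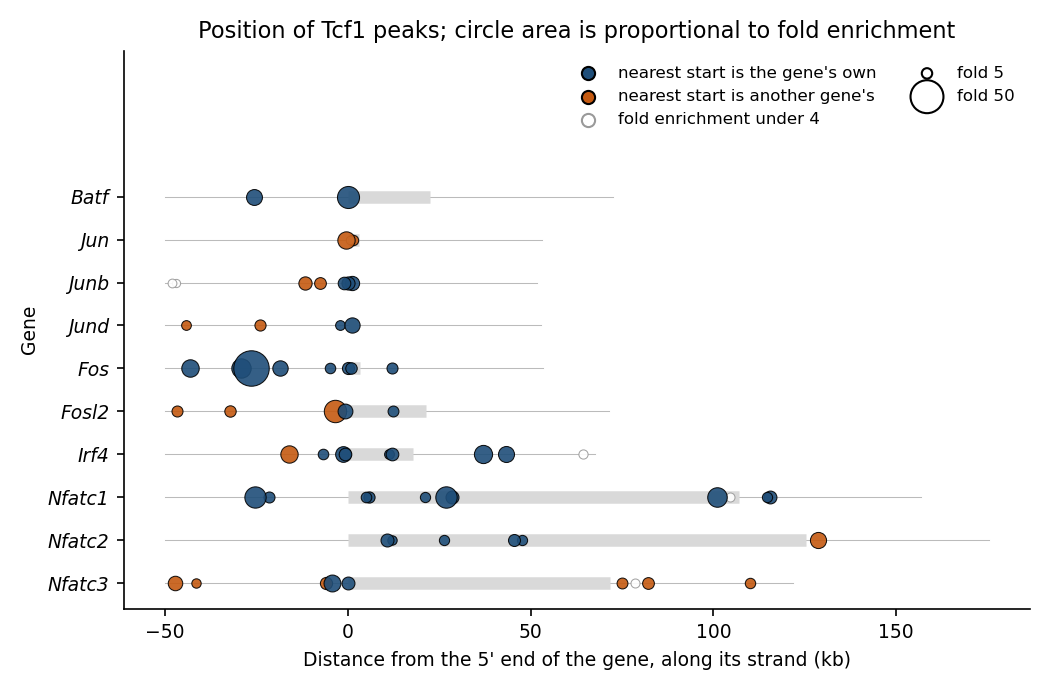
Positions of the 64 deposited peaks along each gene, in kb from the gene's 5′ end on its own strand. Grey bars are gene bodies, thin lines the 50-kb flanks, and circle area is proportional to fold enrichment; blue circles have the gene's own start as the nearest, orange circles another gene's, and open circles have a fold enrichment under 4. The Fos circles cluster upstream, whereas those of Nfatc1 and Nfatc2 lie mostly inside the gene.

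Nfatc1, the NFAT gene with an inducible short isoform that feeds back on its own promoter (ENSMUSG00000033016.9, chr18:80802944-80909810, minus strand), had the most peaks of the set. All 10 had an Nfatc1 start as the nearest, and 6 lay in the gene body. The 3 strongest were in intron 2, 21.9 kb from a start (pileup 147, 124 to 173, fold enrichment 21.1), 25.3 kb upstream within the neighbouring gene Atp9b (pileup 133, 111 to 158, fold enrichment 20.9), and in intron 9, 96.1 kb from a start (pileup 112, 92.2 to 135, fold enrichment 17.6). The intervals of these 3 pileups overlapped. The peak in intron 9 held an NFAT core 44 bp to the left of its summit, the only one within 100 bp of any of the 58 summits. The promoter peak, 16 bp from the more downstream of the annotated starts, was weak, with a pileup of 32 (21.9 to 45.2) and a fold enrichment of 5.14. The other 6 peaks had fold enrichments of 4.83 to 7.79. The window of Nfatc1 is 207 kb long, and its density was 4.83 peaks per 100 kb, below those of Fos (7.74), Irf4 (6.80) and Junb (4.91) and against a median of 0.973 over protein-coding genes.

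Nfatc2, which encodes NFAT1, the form abundant in resting T cells (ENSMUSG00000027544.9, chr2:168301910-168427157, minus strand), had 6 peaks, 5 of them in the gene body. The strongest was outside it, 3.35 kb beyond the gene end (chr2:168298325-168298787), with a pileup of 76 (59.9 to 95.1) and a fold enrichment of 12.0, and its nearest start was that of Gm14234, 54.5 kb away. The promoter peaks had pileups of 49 and 25 and fold enrichments of 7.79 and 4.05, and lay 480 bp and 498 bp from the nearest of a cluster of internal starts in intron 1 of the longest transcript, on opposite sides of that cluster. A peak in intron 3, 3.94 kb from the nearest Nfatc2 start, had a pileup of 50 (37.1 to 65.9) and a fold enrichment of 6.64, and held an IRF element. The other 2 peaks had fold enrichments of 4.83 and 4.85. The density of 2.66 peaks per 100 kb was the lowest of the 3 NFAT genes.

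Nfatc3, which encodes NFAT4 (ENSMUSG00000031902.8, chr8:108582740-108654437, plus strand), had 8 peaks and no summit in its gene body, of which peaks covered 1.80%. The strongest lay 4.45 kb upstream (chr8:108577969-108578740), with a pileup of 109 (89.5 to 131) and a fold enrichment of 13.2. The promoter peak was 42 bp upstream of the start and 1588 bp wide, with a pileup of 53 (39.7 to 69.3) and a fold enrichment of 7.70. The second strongest, with a pileup of 61 and a fold enrichment of 9.66, lay at the start of Ddx28, 47.4 kb upstream, and held a CRE 9 bp from its summit, the only one within 100 bp of any of the 58 summits. A further peak lay 5.87 kb upstream, within Dus2l (fold enrichment 6.86). The other 4 peaks had fold enrichments of 4.05 to 6.39. Only 2 of the 8 Nfatc3 peaks had an Nfatc3 start as the nearest, and the rest were nearest to starts of Ddx28, Dus2l, Esrp2, AC133195.1 and Slc7a6.

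When the genes were ordered by their tallest peak, Fos (371) stood above Fosl2 (147), a ratio of 2.52 (adjusted p = 2.08e-22, exact two-sided binomial test of the 2 pileups, Benjamini-Hochberg over 9 neighbouring pairs, 1 library). After Fosl2 came Nfatc1 (147), Batf (143), Nfatc3 (109), Irf4 (97), Jun (88), Nfatc2 (76), Jund (68) and Junb (59). No other neighbours in this order differed beyond counting error: the step from Batf to Nfatc3 gave p = 0.0374 and an adjusted p of 0.168 in the same exact test, and all others had adjusted p of 0.72 or more. The pairs were formed by sorting the genes on the tested pileup, each the highest of 2 to 10 peaks, and the adjustment does not cover that choice, so the p-values only compare the size of a step with counting error. With windows of 20 kb, which leave out the Fos peak 26.6 kb upstream, 0 of the 9 pairs passed.

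All 10 genes had a peak within 1 kb of one of their own starts, against 32.8% of protein-coding genes, and all had a peak in their window against 66.5%. The start could be any annotated one. At Jund, Nfatc1 and Nfatc2 the summit nearest to the gene's 5′ end lay 1.27, 4.91 and 10.8 kb from it. The 10 genes were chosen with results of these data known, so the counts against protein-coding genes are descriptions. Their promoter peaks were mostly of moderate strength. At 4 of the 10 genes (Batf, Jun, Jund and Fosl2) a promoter peak reached a fold enrichment of 8. A fold enrichment of at least 20 was reached by 5 of the 58 peaks (8.62%) against 7.98% of all peaks, 1 each at Fos, Fosl2 and Batf and 2 at Nfatc1, and only that of Batf was at the gene's own promoter.

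The peaks were on the upstream side more often than on the downstream side. Leaving out peaks within 1 kb of a gene's own start, 24 peaks lay in the 50 kb upstream of the 10 genes and 9 in the 50 kb downstream, an upstream share of 72.7% against 47.2% over the windows of all protein-coding genes. The AP-1 genes contributed most: of their 18 peaks outside gene bodies, promoter peaks included, 17 were upstream and 1, at Fos, was downstream. The 3 NFAT genes had 7 upstream and 6 downstream. Several peaks share a gene, and neighbouring windows share peaks in the background, so no test was made. The shares of peaks at promoters of any gene (32.8%, 22.1 to 45.6) and in gene bodies (27.6%) were close to or below those over all peaks (39.6% and 33.0%), and 39.7% (28.1 to 52.5) were intergenic against 27.4%. Another peak lay within 10 kb of 45 of the 58 summits (77.6%, 65.3 to 86.4), against 49.1% over all peaks. The nearest annotated start was the gene's own for 41 of the 58 (70.7%, 58.0 to 80.8).

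The control library was at its floor at 43 of the 58 summits (74.1%, 61.6 to 83.7) against 86.3% of all peaks. Above the floor the levels at the other 15 stayed between 6.02 and 10.03 fragments, and 8 of these 15 were in the windows of AP-1 genes. At the floor, a fold enrichment of 4 takes a pileup of 25 fragments (Poisson interval 16.2 to 36.9), so peaks near the limit could fall on either side of it. Just inside it were peaks at Nfatc2 (4.05), Nfatc3 (4.05), Jund (4.36 and 4.42) and Irf4 (4.42), the last being the peak with the Tcf/Lef core at its summit. Just outside were peaks at Irf4 (3.90), Nfatc1 and Nfatc3 (3.74 each), Junb (3.55 and 3.10) and Jun (3.32). Not all of these peaks were at the floor, and above it a fold enrichment of 4 takes more than 25 fragments. The control level was 6.02 at the Jund peak of 4.42, 6.69 at the Irf4 peak of 4.42 and 8.02 at the Junb and Jun peaks. The part of the higher control levels in the counts above was not tested.

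Other genes of the same pathways were counted in 4 lists. Of 34 such genes, 24 (70.6%) had a promoter peak and 33 had a peak in their window, the exception being Rcan2, and their median was 3 peaks per gene against 5.5 for the 10 genes above and 1 over all protein-coding genes. Among 11 other AP-1 and basic leucine zipper genes, 7 had a promoter peak. Bach2, a repressor that competes with AP-1 for its elements, had 23 peaks with fold enrichments up to 29.1, the strongest nearest to a start of Gm11932, and 0.0313% of protein-coding genes had as many. Its window is 447 kb long, and its density of 5.14 peaks per 100 kb was reached by 7.09% of protein-coding genes. Batf2 had 3 peaks, and the strongest (38.2) lay nearest to Snx15. Jdp2 had 3 peaks, of which the strongest (22.4) and another (11.7) are the 2 Batf peaks counted again.

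Among 7 other interferon regulatory factor genes, 5 had a promoter peak. The highest fold enrichments were 15.0 in the window of Irf2, 13.9 in that of Irf9, nearest to Fam158a, and 10.3 in that of Irf3, nearest to Prmt1. Among 7 other NFAT and calcineurin genes, 5 had a promoter peak, and the calcineurin subunit genes held the strongest: Ppp3ca (32.4, 17.3 kb from a start), Ppp3cc (16.5) and Ppp3r1 (15.7). Of 9 genes for regulators of calcineurin and NFAT, 7 had a promoter peak, and the kinase genes Dyrk2 (25.1), Dyrk1a (22.6) and Gsk3b (18.2), whose products phosphorylate NFAT proteins, had the highest values in their windows, that of Dyrk1a nearest to a start of Dscr3. The exact Tcf/Lef core was found at a peak of 9 of the 34 genes, of 5 of the 10, and of 15.6% of protein-coding genes. A gene with more peaks has more chances to be counted here. Per peak, the core was in 8.62% at the 10 genes and in 10.2% over all peaks.

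**Figure D4:**
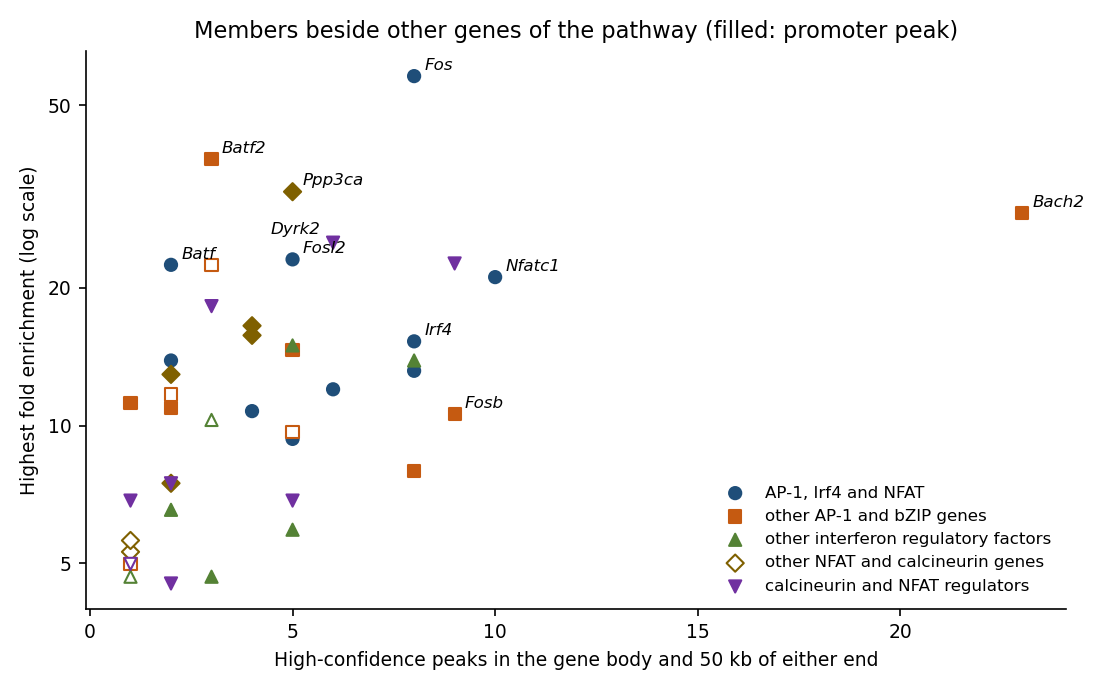
Number of high-confidence peaks per window (horizontal axis) and highest fold enrichment (vertical axis, log scale) for the 10 genes and 33 other pathway genes; Rcan2, with 0 peaks, is not drawn. Filled symbols have a promoter peak; Fos is highest at 58.0 and Bach2 farthest right with 23 peaks.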

How the data were processed

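Per the labels and the methods, the authors aligned paired reads to mm9 with Bowtie2 2.2.5 and called peaks with MACS2 (2.1.1.20160309 in the file header) at p under 1e-05, comparing the WT library with the Tcf1-deficient one. The deposited pileup is a signal, the unscaled coverage of WT fragments at the summit. The deposited fold enrichment is a ratio of pileup to control level with a pseudocount of 1, and the deposited −log10 p and −log10 q are Poisson p-values and their adjusted form. A Poisson p recomputed from the pileup and control level matched the deposited value within 0.01 for 100% of 21949 peaks. The WT library kept 79.6% of its fragments and the control 76.5%. No value column was left unused.

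Summits were placed on GENCODE vM1 genes and sequence was read from the NCBIM37 genome, which is mm9. The control level was computed as (pileup + 1)/fold enrichment − 1. Shares have Wilson, pileups exact Poisson and medians order-statistic 95% intervals. Pileups of neighbouring genes were compared with an exact binomial test. All promoter peaks and the 3 strongest peaks of each gene are named, and the 3 genes with the strongest peak of each pathway list. A gene of the pathway lists is not reported here. The members and lists were chosen with earlier results of these data known. Python 3.11.15, pandas 2.3.3, scipy 1.17.1 and pysam 0.24.0 were used, and the computations were checked on simulated data. Sequences from Nfatc1 and from UTRs are not shown.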

Additional observations from a re-analysis of the deposited data

Results flagged for a closer look

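The 10 windows held 6 deposited peaks that fell short of a fold enrichment of 4 but passed the peak caller's p against the control library. They lie at Junb (3.10 and 3.55), Jun (3.32), Nfatc1 (3.74), Nfatc3 (3.74) and Irf4 (3.90), with pileups of 23 to 31 fragments. Those at Junb and Jun stand over a control level of 8.02 fragments, and the other 3 over the floor of 5.42. They were looked at more closely because the comparisons above do not use them.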

How the results depend on the processing

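Of 60 alternative settings over 13 results, 46 left the value within its limits and 14 moved it. A fold enrichment minimum of 8 left 22 peaks and 4 genes with a promoter peak, and raised the median fold enrichment to 13.5, the median width to 700 bp and the share of control levels at the floor to 86.4%. Gene bodies alone held 21 peaks. Promoters of 2.5 kb on each side took 46.6% of the peaks, and 0.5 kb left 7 genes with a promoter peak. In windows of 100 kb, 53.8% of the peaks were nearest to the gene's own start. In windows of 20 kb, which leave out the tallest Fos peak, 0 neighbouring pairs of genes differed. With any 1 base of the Tcf/Lef core left free, 63.8% of the peaks held it, against 56.5% of all peaks. Within 50 bp of the summit the AP-1 element was in 0 peaks, the Runx core in 3.45% and the ETS core in 1.72%. Within their wide intervals other shares rose: the Runx core to 18.2% at a fold enrichment minimum of 8 and 13.8% anywhere in the peak, and the NFAT core to 4.55% and 6.90%. Computing the control level without the pseudocount left 0 levels at the floor, by construction.

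No paired analysis was possible because each group was 1 library, and leaving out a replicate leaves no comparison. Depth limits the weak peaks, where a pileup of 25 has a Poisson interval of 16.2 to 36.9.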
